A study of Mus musculus with 2 samples.

Results

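The ileal bile acid enterocytes described here are absorptive cells of the gut lining picked out by Fabp6, the gene of the ileal bile acid binding protein. They numbered 468 of 12554 kept cells in 2 single-cell RNA-seq libraries of mouse intestine. Barcodes were kept when they passed a minimum of unique molecular identifiers (UMIs, counts of captured RNA molecules), held 200 genes or more and had no more than 25% of UMIs from mitochondrial genes. A kept barcode became a member with at least 3 Fabp6 UMIs that made up at least 0.1% of its UMIs. Barcodes were left out when 5 goblet genes (Muc2, Fcgbp, Clca1, Zg16 and Tff3) reached 0.5% of UMIs, when defensins and Lyz1 reached 5%, or when any Cd3 UMI was present. One library came from MG53-TG mice and the other from their wild type (WT) littermates. The transgene overexpresses MG53 (Trim72), a membrane repair protein best known from muscle, throughout the body. Both groups carried dextran sulfate sodium (DSS) injury, from 2.5% DSS until day 7, so neither library shows the uninjured gut. Live cells (7-AAD negative) with EpCAM on their surface had been sorted from dissociated crypts. The cells are described as n = 5 for each group, but the labels give 1 library per genotype and no map from cells to mice, so no test between genotypes was possible. Intervals below are exact unless said otherwise, at 95%, and cover counting error only.

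Bile acids are made in the liver, help to dissolve fat in the gut and are taken back at its lower end. In enterocytes of the ileum Slc10a2 carries them in at the apical membrane, Fabp6 binds them in the cytosol, and the Slc51a and Slc51b subunits release them towards the blood. Inside the cell they bind the nuclear receptor Nr1h4 (FXR), which induces Fabp6, both Slc51 genes and the hormone Fgf15, and Fgf15 then restrains bile acid synthesis in the liver.

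The upstream sequences of 3 genes of this route, and of Fabp1, the liver-type fatty acid binding protein of the same protein family as Fabp6, are shown so that the genes can be set beside their values. Each is the 250 bases before the RefSeq start (GRCm38.p6), written in the direction of the gene. Capitals mark matches, on either strand, to 3 searched motifs. These were TTTATNG for the CDX factors, the core promoter element TATAAA, and CAAAGTCC for the HNF4 factors. The inverted repeat that Nr1h4 reads was searched as well.
Fabp6, chr11:43601563-43601812, minus strand: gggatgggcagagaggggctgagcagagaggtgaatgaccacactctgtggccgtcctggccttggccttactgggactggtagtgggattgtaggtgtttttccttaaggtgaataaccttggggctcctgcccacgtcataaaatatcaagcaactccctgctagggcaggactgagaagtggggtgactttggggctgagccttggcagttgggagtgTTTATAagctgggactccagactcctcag
Slc10a2, chr8:5105288-5105537, minus strand: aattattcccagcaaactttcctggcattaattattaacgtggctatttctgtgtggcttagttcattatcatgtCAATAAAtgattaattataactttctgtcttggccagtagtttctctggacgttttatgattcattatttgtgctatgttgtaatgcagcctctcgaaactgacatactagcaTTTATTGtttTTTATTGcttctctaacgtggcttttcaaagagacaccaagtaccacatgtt
Slc51a, chr16:32487880-32488129, minus strand: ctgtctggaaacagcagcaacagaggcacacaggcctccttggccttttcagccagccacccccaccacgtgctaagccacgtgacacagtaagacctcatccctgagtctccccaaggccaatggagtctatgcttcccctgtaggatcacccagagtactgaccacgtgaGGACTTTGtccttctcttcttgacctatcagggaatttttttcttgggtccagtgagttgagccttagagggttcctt
Fabp1, chr6:71199629-71199878, plus strand: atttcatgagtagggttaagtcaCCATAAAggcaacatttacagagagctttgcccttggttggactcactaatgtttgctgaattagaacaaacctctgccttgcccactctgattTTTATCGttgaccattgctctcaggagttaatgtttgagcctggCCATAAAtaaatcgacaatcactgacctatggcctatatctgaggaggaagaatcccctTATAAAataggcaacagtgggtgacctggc

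Positions below count back from the start to the first printed base of a match. The CDX letters stood 3 times in the Slc10a2 window, at -175, -62 and -52, and 3 times in that of Fabp1, at -227, -133 and -89, with those at -175, -227 and -89 on the opposite strand. They stood in 9.81% of 32851 promoter windows of the same length. The TATA letters stood at -29 in Fabp6, where they lie on the opposite strand, and at -30 in Fabp1, and in 12.4% of all windows. The HNF4 letters stood at -78 in Slc51a, on the opposite strand, against 1.2% of all windows. The inverted repeat was in none of the 4 windows and in 0.0335% of all. These matches are letters only, and the Gencode M21 spans of Slc10a2 and Fabp1 reach into the printed windows.

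The members numbered 365 in WT and 103 in MG53-TG. No member barcode was shared between the libraries, and 8 kept barcodes were. Since Fabp6 chose the cells, its level is a description. The gene lies on chromosome 11 at 43596049 to 43601540, minus strand (mm10, Gencode M21, as for all gene positions below). Its share of UMIs had a median of 0.543% in WT, with a highest cell at 6.04%, and a median of 0.402% in MG53-TG, with a highest cell at 5.27%. Summed over members it was 8210 UMIs per 1000000 UMIs (CPM) in WT, with 8032 in MG53-TG. The shares formed no gap at the limit: the nearest barcodes outside stood at 0.0995% and 0.0958%, the nearest inside at 0.101% and 0.102%, and 66 WT and 24 MG53-TG members lay between 0.1% and 0.2%. Free RNA held Fabp6 as well. It made up 0.0275% of the UMIs of WT barcodes with 100 UMIs or fewer, which is below the limit, and T cells held 13.0 CPM in WT and 2.14 in MG53-TG.

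**Figure D1:**
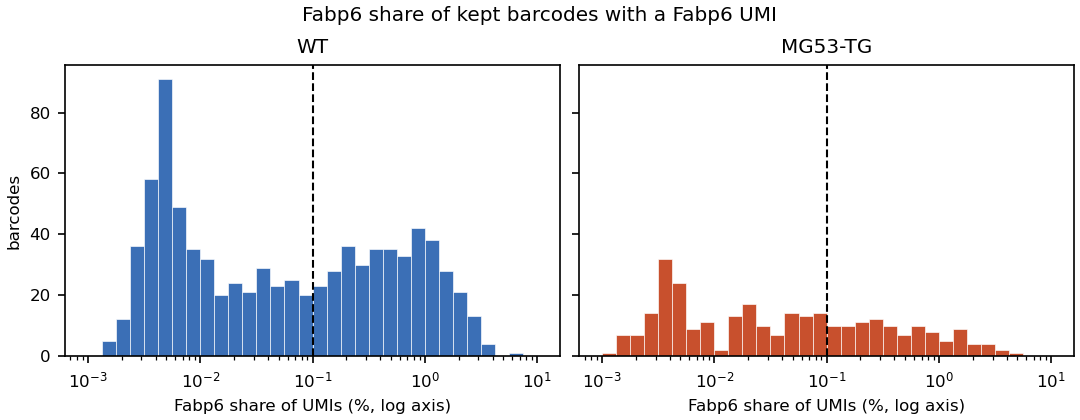
Fabp6 share of UMIs (x axis, percent, log scale) against the number of kept barcodes past the exclusions with a Fabp6 UMI, in WT and MG53-TG. The dashed line is the 0.1% limit. Shares run from near 0.001% to 6.04% in WT and 5.27% in MG53-TG with no empty stretch at the line.

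The members were shallower than other kept cells. Their median depth was 6055 UMIs in WT (range 1459 to 69803) and 12124 in MG53-TG (range 2108 to 46044), against 14459 and 18209 over all kept cells. Their median mitochondrial share was 5.71% and 7.83%. The label was checked by markers that the rule did not use. Slc10a2 was detected in 49.0% (43.8 to 54.3) of WT members and 50.5% (40.5 to 60.5) of MG53-TG members once every cell was thinned to the UMI minimum. Without thinning the shares were 77.0% and 81.6%. Among 629 WT and 259 MG53-TG T cells, which should lack the gene, the thinned share was 0 in both, which allows up to 0.477% and 1.16%. The T cells had median depths of 2657 and 3357 UMIs. Mgat4c, a glycosyltransferase gene, was detected in 31.2% (26.5 to 36.3) and 35.0% (25.8 to 45.0) of members, against 0.159% and 0 of T cells.

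Markers of other cell types were present at several levels. Of 6 colonocyte genes, Car1 and Ly6g were at 0 in both libraries and Aqp8 had 1 UMI, and the summed level of 175 CPM in WT and 141 in MG53-TG came chiefly from Slc26a3 and Mettl7b. This sum was above the 87.3 and 75.7 CPM of other kept cells. Goblet markers summed to 223 and 225 CPM, and 40.5% and 54.4% of members held at least 3 of their UMIs, against 13210.1 and 19680.7 CPM in other kept cells. Paneth markers summed to 131 and 95.5 CPM. At least 3 UMIs of 8 enteroendocrine genes were present in 42 WT and 13 MG53-TG members, and 593 of 1014 such UMIs in WT lay in 1 cell. Of 6 tuft genes, 151 of 158 UMIs in MG53-TG lay in 1 member. The summed levels of T cell, B cell and stromal lists were at most 15.7 CPM in WT and 11.5 in MG53-TG, with the 5 B and plasma cell genes and the 5 stromal genes all at 0 in MG53-TG. Scrublet marked 3 WT and 0 MG53-TG members as likely doublets. Where 1 cell carries a value below, this is said beside it.

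The members made up 4.93% (4.45 to 5.45) of kept WT cells, 365 of 7401. In MG53-TG they made up 2.0% (1.63 to 2.42), 103 of 5153. The difference was 2.93 percentage points (-2.93 in MG53-TG minus WT, normal-approximation interval -3.56 to -2.31). The order held when only absorptive cells were the base. Members were 11.7% (10.6 to 13.0) of 2798 WT absorptive cells and 5.45% (4.41 to 6.64) of 1689 MG53-TG absorptive cells, which were the members past an absorptive minimum together with the comparison cells described below. The labels name only intestine as tissue. The length of ileum behind each library, the sort and the version of the counting program cannot be told apart from genotype here, nor can fewer such cells from poorer recovery of them.

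The route from uptake to release was measured at each step against Fabp6-low absorptive cells. These 2470 WT and 1597 MG53-TG cells passed the same filters and exclusions, had Fabp6 below 0.1% of UMIs, and reached a minimum share of 7 absorptive genes (Fabp1, Fabp2, Apoa1, Apob, Mttp, Sis and Anpep) set at the 10th percentile of the members of their library. They still held other cells. Stem and cycling markers in them summed to 708 CPM for WT and 526 for MG53-TG, and members held 91.5 and 137. Enteroendocrine markers summed to 1378 and 647 CPM, against 253 and 84.7, and tuft markers to 373 and 717 CPM, against 5.98 and 113. A stricter set had the minimum at the members' median and numbered 760 WT and 548 MG53-TG cells. It held 47.4 and 26.0 CPM of stem and cycling markers, 279 and 46.0 CPM of enteroendocrine markers and 103 and 45.6 CPM of tuft markers. Results are given against both sets. Both were deeper than the members, with median depths of 16688 and 20188 UMIs in the larger set and 11374 and 18301 in the stricter one. The part of depth in the ratios was not tested.

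Slc10a2, the apical uptake carrier (chromosome 8, 5083219 to 5105351, minus strand), stood at 442 CPM (421 to 463) in WT members and 17.3 CPM (16.1 to 18.6) in WT Fabp6-low cells, a ratio of 25.5. In MG53-TG it stood at 448 CPM (413 to 484) and 17.2 CPM (15.9 to 18.7), a ratio of 26.0. Against the stricter set the ratios were 7.63 and 9.15. The gene was thus several times higher in the members whichever set was used. Slc51a, one subunit of the exporter (chromosome 16, 32474504 to 32487879, minus strand), was at 990.5 CPM against 171 in WT and at 1009.8 against 220.0 in MG53-TG, ratios of 5.79 and 4.59, or 3.23 and 2.95 with the stricter set. Slc51b, the other subunit (chromosome 9, 65412714 to 65422955, minus strand), was at 576 CPM against 111 and at 815 against 171, ratios of 5.18 and 4.77, or 2.18 and 2.32. Abcc3, an export pump of the ABC family, was lower in members, at 20.4 CPM against 33.9 in WT and 16.5 against 40.3 in MG53-TG, with stricter ratios of 0.586 and 0.454. Abcc2, a pump of the apical membrane, was at 46.4 against 36.1 and 51.0 against 52.2, and its ratios of 1.28 and 0.976 became 0.648 and 0.577 with the stricter set.

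Among the sensing genes, the hormone gene Fgf15 (chromosome 7, 144896531 to 144900953, plus strand) was at 39.1 CPM (33.2 to 45.8) in WT members against 3.19 (2.68 to 3.77) in Fabp6-low cells. In MG53-TG it was at 48.1 CPM (37.3 to 61.1) against 2.86 (2.31 to 3.51). The ratios of 12.3 and 16.8 were 3.74 and 5.51 with the stricter set. Few cells carried it: 65 WT and 25 MG53-TG members had a UMI, and the highest cell held 10.8% and 10.4% of the UMIs. Nr1h4, the bile acid receptor itself (chromosome 10, 89454234 to 89533585, minus strand), was at 158 CPM against 51.1 in WT and 129.9 against 48.3 in MG53-TG, and the stricter ratios of 3.38 and 2.57 were of the same order. Malrd1, which is known to raise Fgf15 output, was at 132 CPM against 42.3 and 134 against 46.4, ratios of 3.13 and 2.89, or 2.01 and 2.22 with the stricter set. Rxra, the partner of Nr1h4, was 1.82 and 1.57 times as high in members, Nr1i2 1.41 and 1.15 times, Vdr 1.13 and 1.23 times, and Nr5a2 1.32 and 1.40 times. Against the stricter set Nr5a2 stood further apart, at 2.07 and 2.54, and Nr1i2 turned to 0.885 and 0.891, while Rxra was at 1.37 and 1.20 and Vdr at 1.14 and 1.16. Cyp3a11, a xenobiotic and bile acid hydroxylase gene, was lower at 15.95 CPM against 34.9 in WT and 25.8 against 79.1 in MG53-TG, with stricter ratios of 0.139 and 0.122. Cyp3a13, another cytochrome P450 gene, was at 362 CPM against 235 and 324 against 274, ratios of 1.54 and 1.18 that turned to 0.585 and 0.556 with the stricter set. Nr0b2, a repressor that Nr1h4 induces in liver, and Gpbar1, the membrane bile acid receptor, had no UMI in any member, which allows up to 0.748 CPM in WT and 2.15 in MG53-TG.

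**Figure D2:**
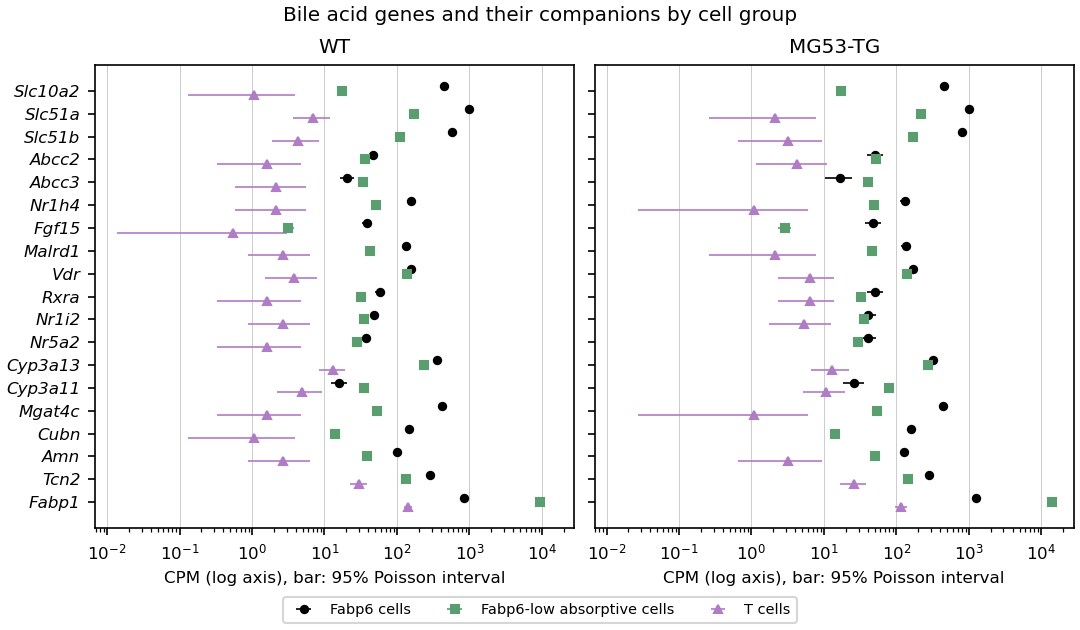
Level of bile acid genes, Mgat4c, vitamin B12 genes and Fabp1 in CPM (x axis, log scale) in Fabp6 cells (black), Fabp6-low absorptive cells (green squares) and T cells (purple triangles), with 95% Poisson intervals; genes at 0 have no point. Slc10a2 stands at 442 and 448 CPM in the Fabp6 cells against 17.3 and 17.2 in the Fabp6-low cells. Fabp1 helped to choose the Fabp6-low cells, so its distance between groups is partly set by that choice.

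Across all genes, 296 of 5348 tested genes (5.53%) were at least 2-fold higher in members in both libraries, and 279 (5.22%) were at least 2-fold lower, for genes with 30 UMIs and 20 CPM. Against the stricter set 138 of 4933 tested genes (2.8%) were higher and 103 (2.09%) lower. Of 5 tested transport genes 3 passed in the higher direction under both sets, Slc10a2, Slc51a and Slc51b. Of 9 tested sensing genes Nr1h4, Fgf15 and Malrd1 were higher and Cyp3a11 lower, and the stricter set added Nr5a2 to the higher ones. These counts describe the lists, which were chosen with earlier results of the data known.

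The genes furthest above the Fabp6-low cells were Slc10a2, Tmigd1, Saa1, Prss23, Cubn, Mep1a, Sprr2a3, Suox, Mgat4c, Ppfia3, Guca2a, Pmp22, Slc34a2, Naaladl1 and Xpnpep2. Each kept its direction against the stricter set. Tmigd1, an adhesion molecule of epithelia, had log2 ratios of 4.55 in WT and 4.21 in MG53-TG, and 2.78 and 2.69 with the stricter set. Suox, the sulfite oxidase gene, was the one whose distance grew, from 3.45 and 3.05 to 3.74 and 4.42. Its level was 122 CPM in WT members and 138 CPM in MG53-TG members, against 9.10 and 6.44 CPM in the stricter set. Mgat4c stood at 418 CPM (398 to 438) and 433 CPM (400 to 469) against 53.8 and 53.3, log2 ratios of 2.96 and 3.02. Guca2a, which encodes the peptide guanylin, had log2 ratios of 2.88 and 2.74, and Saa1, an acute phase gene, 4.74 and 3.84.

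The 10 genes furthest below depended on the comparison set, with 5 of them turning in WT and 4 in MG53-TG against the stricter one. Hist1h1b, Gip, Nts, Gcg and Top2a, histone, hormone and mitosis genes, were lower by log2 ratios of -5.96, -5.14, -5.03, -5.51 and -4.68 in WT and turned to 1.54, 0.27, 0.25, 0.22 and 0.52 against the stricter set. Gip, Nts, Gcg and Top2a turned in MG53-TG too, to 0.03, 0.62, 1.65 and 0.62, and Hist1h1b had no UMI there. Reg1 and Onecut2 kept their direction. Reg1, a secreted lectin gene, was at 34.1 CPM against 1037 in WT and 9.33 against 1059 in MG53-TG. Onecut2, a transcription factor of the upper small intestine, was at 10.2 CPM against 145 and 6.46 against 167, with stricter log2 ratios of -3.34 and -4.31. Cck, Alox5ap and Nrgn made up the rest, with stricter ratios of -0.30, -5.90 and -5.70 in WT and -0.43, -0.97 and -0.27 in MG53-TG.

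**Figure D3:**
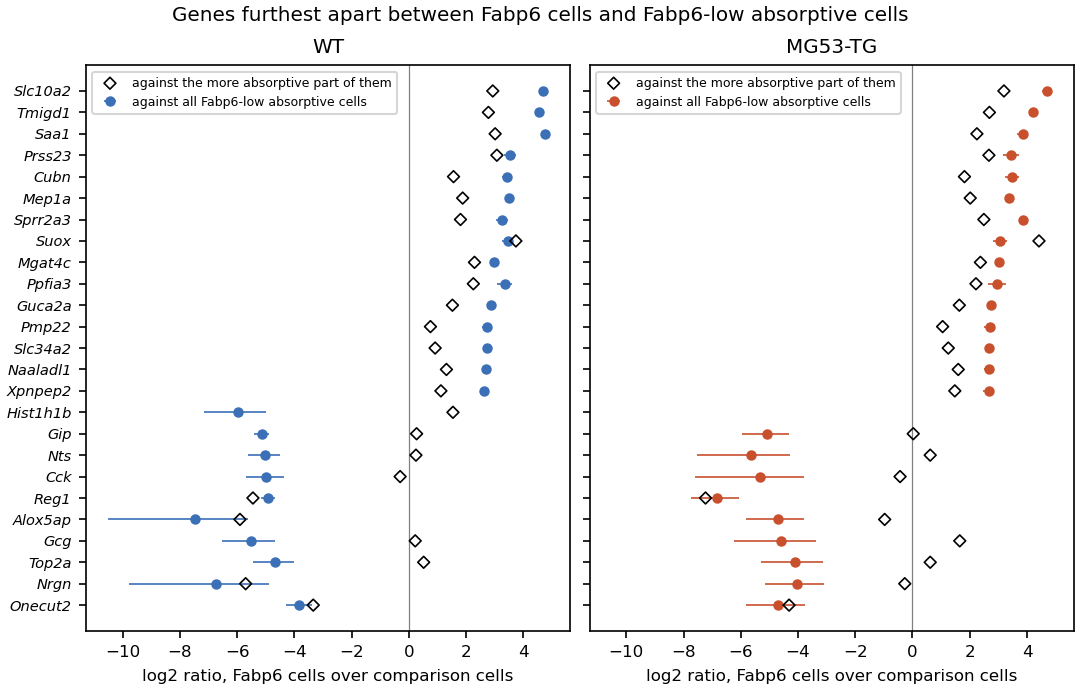
Log2 ratio of Fabp6 cells over Fabp6-low absorptive cells (filled points, with 95% counting intervals, cut at -11 where longer) and over the stricter set (open diamonds) for the 15 highest and 10 lowest named genes in each library. The higher genes stay right of 0 with both sets, whereas Hist1h1b, Gip, Nts, Gcg and Top2a cross it; Hist1h1b has no point in MG53-TG, where members held 0 UMIs.

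Regional transcription factors split. Gata4, which keeps jejunal identity, was lower in members at 13.0 CPM against 40.9 in WT and 12.2 against 44.8 in MG53-TG, and stayed at least 2-fold lower against the stricter set. Of 12 tested factors Gata5, Maf and Klf4 were at least 2-fold higher and Gata4 and Onecut2 lower, and with the stricter set only the lower calls were left. Maf stood at 495 CPM against 135 and 716 against 210. Its stricter log2 ratios were 0.70 and 0.85.

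Vitamin B12 is taken up in the same stretch of gut, bound to intrinsic factor, by a receptor of Cubn and Amn. Cubn was at 149 CPM (137 to 161) against 13.8 in WT and 158 CPM (138 to 180.2) against 14.1 in MG53-TG. Against the stricter set the ratios were 2.95 and 3.52, and Cubn was 1 of 4 tested genes of the list past the fold, the others falling short of it. Amn, the membrane anchor of the receptor, was at 98.7 against 38.4 CPM and 128 against 50.2. Its stricter log2 ratios were 0.18 and 0.39. Tcn2, the carrier that takes the vitamin onward in blood, was at 283 against 133 and 282 against 145 CPM.

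Other absorptive functions were unevenly shared. Of 14 brush border enzymes tested, 7 were higher and 2 lower, and with the stricter set Mep1a and Xpnpep2, both peptidases, were higher and Lct, Treh and Mme lower. Lct, the lactase gene, had log2 ratios of -2.46 in WT and -1.46 in MG53-TG. Of 15 nutrient carriers 6 were higher, of which Slc1a1 (glutamate) and Slc13a1 (sulfate) stayed, while Slc2a2 and Slc9a3 became lower calls. Of 11 lipid genes tested, without the 5 that chose the comparison cells, Cd36, Slc27a2, Apoa4 and Apoc2 were lower and Slc27a4 higher, and the other 6 did not pass. The stricter set gave 5 lower, adding Apoc3, and 0 higher. Apoa4, an apolipoprotein of chylomicrons, was at 388 CPM against 1035 and 393 against 1422. Fabp1 stood at 843 CPM against 9399 in WT and 1269.6 against 13994 in MG53-TG. That gene helped to choose the comparison cells, so its ratio is no independent value.

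Defence genes stood out against the larger set only in part. Of 13 tested antimicrobial and injury genes 7 were higher and Reg1 lower, and with the stricter set Saa1, Duox2, Gsdmc2 and Gsdmc4 were higher and Reg1 and Il18 lower. Of 12 interferon and antigen presentation genes 6 were higher, among them Isg15, Cd74 and H2-Aa, and none was against the stricter set, where Isg15 had log2 ratios of 0.86 in both libraries. Among the cholesterol genes Sqle, a synthesis enzyme, was at least 2-fold higher with both sets, with log2 ratios of 1.01 in WT and 1.08 in MG53-TG, and 1.72 and 2.09 with the stricter set. When members and comparison cells were both held to the median absorptive share, a choice made after seeing the data, Slc10a2, Slc51a, Slc51b, Fgf15, Malrd1, Cubn and Mep1a were again at least 2-fold higher. Nr1h4 was not, with log2 ratios of 1.69 in WT and 0.82 in MG53-TG, nor were Gsdmc2, Gsdmc4, Nr5a2 and Idi1, and Abcc3 was lower, at -1.23 and -2.29. Maf, Klf4, Amn, Ifit1, Oasl2 and Irf7, which the stricter set alone did not call, were at least 2-fold higher here. Over all 5021 genes tested 356 (7.09%) were higher and 353 (7.03%) lower.

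The members were also split by the Fabp6 share itself, whose own spread is therefore no finding. Cells with a Fabp6 share of 0.1% to 0.3%, 0.3% to 1%, 1% to 3% and at least 3% numbered 113, 147, 97 and 8 in WT and 40, 38, 22 and 3 in MG53-TG. Slc10a2 was at 394, 430.4, 475 and 961 CPM over these ranges in WT and at 242, 523, 658 and 501 CPM in MG53-TG. Slc51a was at 738, 997, 1176 and 1841 CPM in WT and at 826, 983, 1284 and 1695 CPM in MG53-TG. Both genes were thus above their lowest range in every higher range. Nr1h4 ran from 128 to 400.2 CPM in WT, and from 91.8 to 231 CPM in MG53-TG, where the last range held 6 UMIs of the gene. Between cells at 1% or more and cells at 0.1% to 0.3%, 7 of 3611 tested genes (0.194%) were at least 2-fold higher in both libraries and 20 (0.554%) were lower. The 4 transport and 8 sensing genes tested held none of them, too few genes at these shares for a count of 0 to say anything about the route.

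The 8 genes that ran highest with the Fabp6 share were Suox, Ly6e, Reg3b, Pdlim1, Reg3g, Slc51a, Slc13a1 and Mep1a. Suox was at 201 CPM in cells at 1% or more and 43.1 CPM at 0.1% to 0.3% in WT, and at 276 and 73.0 CPM in MG53-TG. The sulfate carrier Slc13a1 was at 389.7 against 245 and 631 against 302 CPM. Those that ran lowest were Enpp7, Apoc3, Ms4a10, Gsdmc4, Ccnd2, Lgals2, Cyp4v3 and Fabp1. Enpp7, the alkaline sphingomyelinase gene, was at 22.1 against 84.4 CPM in WT and 43.7 against 221 CPM in MG53-TG. Fabp1 was at 325 against 1841 and 1092 against 2092 CPM. Median depth in the 3 larger ranges was 5488, 5317 and 11685 UMIs in WT and 12601, 9954 and 16599 in MG53-TG.

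Members were also ordered by an index of villus position, the UMIs of 10 tip genes over those of the tip and 9 bottom genes in cells thinned to the UMI minimum. The index was cut into 3 ranges over both libraries. The bottom, middle and tip ranges held 131, 117 and 117 WT members and 25, 39 and 39 MG53-TG members, and 97 and 32 members lay within 0.01 of a cut. The bottom genes summed to 86946 CPM in WT and 62410 in MG53-TG, and the tip genes to 2009 and 2333 CPM. Reg3b, one of the bottom genes, held 5.92% and 4.06% of all member UMIs. With an index without the Reg genes the ranges held 111, 130 and 121 WT members and 31, 38 and 34 MG53-TG members. Depth fell along the index, from a median of 15085 to 5420 and 3961 UMIs in WT and from 19019 to 16049 and 5351 in MG53-TG, and its part in the values was not tested. Gm42418, named after its values were seen because its counts carry ribosomal RNA, ran from 24616 to 33583 and 75817 CPM in WT and from 21458 to 25235 and 44789 CPM in MG53-TG, and its part was not tested either. From bottom to tip, 445 of 3390 tested genes (13.1%) were at least 2-fold higher in both libraries and 250 (7.37%) lower. With Reg1, Reg3b and Reg3g taken out of the bottom list, 695 were lower, and with members of at least 3000 UMIs 83 were.

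Of 4 tested transport genes Slc10a2 and Abcc2, and of 7 tested sensing genes Fgf15 and Nr1i2, were at least 2-fold higher at the tip than at the bottom in both libraries, and none was lower by that much. Slc10a2 was at 317, 386 and 943 CPM in the WT ranges and at 275, 470.0 and 669 CPM in those of MG53-TG, log2 ratios of 1.57 and 1.28 from bottom to tip. Fgf15 was at 10.5, 35.1 and 138 CPM in WT and 20.7, 47.2 and 91.5 CPM in MG53-TG, log2 ratios of 3.72 (3.03 to 4.46) and 2.14 (1.07 to 3.35). Cubn was at 83.4, 143 and 368 CPM and at 99.4, 118 and 322 CPM. These 3 genes were highest at the tip in both libraries. Abcc2 had log2 ratios of 1.81 and 3.51, the latter on 4 UMIs at the bottom, and Nr1i2 1.10 and 1.02. Amn and Tcn2 joined Cubn, 3 of 4 tested vitamin B12 genes. Vdr had -0.03 and -0.07, and Rxra 0.65 and 1.77. Without the Reg genes the 4 transport and sensing calls stood, Cyp3a11 was added to the higher ones, and Nr5a2 was lower.

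Fabp6 was at 9559, 7265 and 5714 CPM in WT and 9106, 7979 and 6496 CPM in MG53-TG. As Fabp6 chose the cells, its course along the index is a description and no finding. Mgat4c was at 476, 404 and 259 CPM and at 491, 507 and 208 CPM. Slc51a differed by log2 ratios of 0.33 and 0.11, and Slc51b by 0.25 and 0.03. Nr1h4 differed by -0.23 (-0.58 to 0.09) in WT and -0.94 (-1.66 to -0.27) in MG53-TG. With the index built without the Reg genes Slc10a2 ran from 207 to 1327 CPM in WT and from 264 to 779.6 CPM in MG53-TG, and Fabp6 from 8851 to 5972 and from 9612 to 6472 CPM. Nr1h4 then ran from 158 to 171 CPM in WT, where its direction turned. In MG53-TG it ran from 145 to 50.8 CPM, the latter on 14 UMIs.

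**Figure D4:**
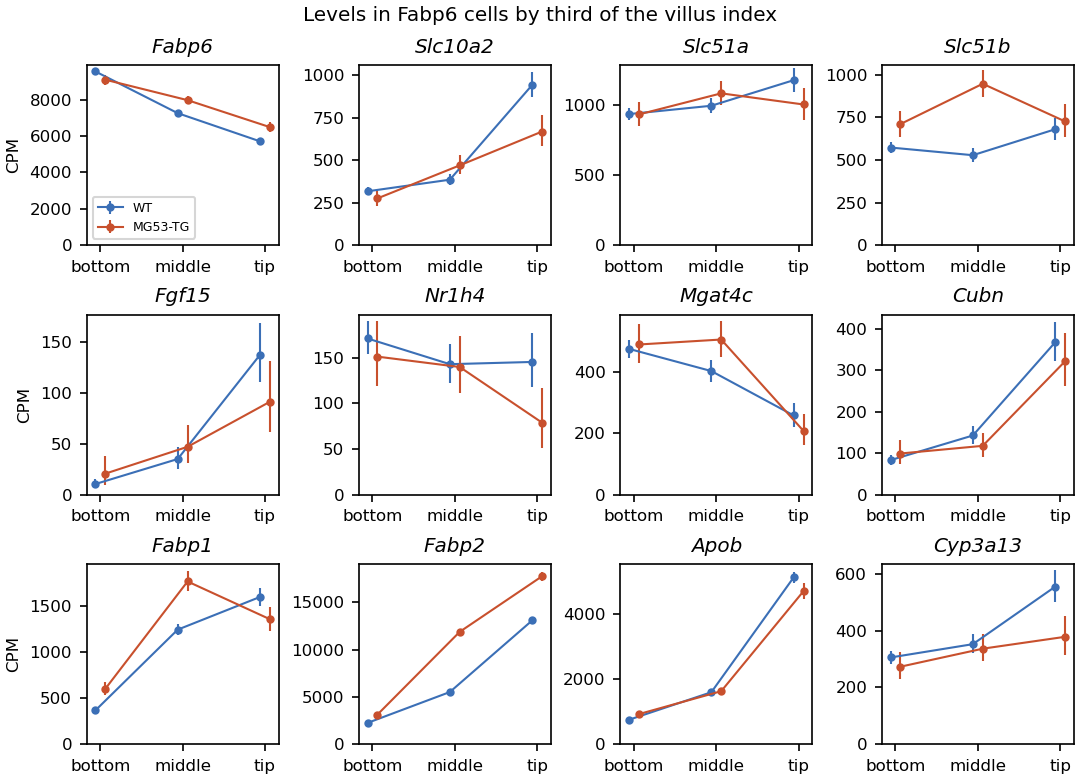
Level in CPM (y axis, from 0) of 12 genes in Fabp6 cells by range of the villus index (bottom, middle, tip) in WT (blue) and MG53-TG (orange), with 95% Poisson intervals. Slc10a2, Fgf15 and Cubn are highest at the tip in both libraries, whereas Mgat4c is lowest there. Fabp6 chose the cells, so its course is a description only.

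At the tip 10 of 15 tested brush border enzymes, 9 of 13 lipid genes and 7 of 14 nutrient carriers were at least 2-fold higher, and none was lower. Without the Reg genes in the index 11 of 14, 7 of 13 and 7 of 14 were higher, and the lipid gene Plin2 was lower. The share over all genes with that index is not given here, so these counts only describe the lists. Fabp1 and Mttp were the lipid genes no longer called, and Fabp1 ran from 594 CPM at the bottom to 404 at the tip in WT and from 1113 to 1407 in MG53-TG. Fabp2, the intestinal fatty acid binding protein, had log2 ratios of 2.54 in WT and 2.51 in MG53-TG, and Apob, the scaffold of chylomicrons, 2.77 and 2.35. Of 10 cholesterol genes 4 were higher (Npc1l1, Abcg5, Abcg8 and Soat2) and Idi1, a synthesis enzyme, lower.
The genes furthest apart were Clca4a, Clca4b, Slc6a19, Neat1, Apoc2, Lmo7, Lpin2 and Selenop on the tip side and Ly6a, Ly6e, Dmbt1, Gmds, Krtcap2, Tmem147, Pycard and Pdia6 on the bottom side. Clca4b was at 2563 CPM at the tip and 270.1 at the bottom in WT, and at 1657 and 143 CPM in MG53-TG. Ly6a, a surface antigen gene (Sca-1), was at 1.51 against 74.3 and 6.31 against 213 CPM.

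Between the genotypes, the transgene marked the libraries. Trim72 had 2 UMIs in WT members (0.498 CPM) and 129 in 45 of the 103 MG53-TG members (92.6 CPM), a log2 ratio of 7.54 (5.66 to 10.60). Over all genes with 30 UMIs and 20 CPM, 138 of 5363 (2.57%) differed at least 2-fold between the members of both libraries, 86 (1.6%) higher and 52 (0.97%) lower in MG53-TG. The median log2 ratio over 8305 genes with 30 UMIs was 0.05, and scaling by the median of ratios shifted values by 0.05. The interval lay above 0 for 13.2% of these genes and below 0 for 6.08%.

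Over all members no transport or sensing gene passed 2-fold between genotypes, which at the share over all genes says little of so few genes, and their values follow. The median log2 ratio was 0.03 for the 5 transport genes other than Fabp6, which chose the cells, and 0.02 for the 9 sensing genes with 30 UMIs. In the Fabp6-low cells the same 5 transport genes had a median of 0.36, and 10 sensing genes 0.05. Slc10a2 had a log2 ratio of 0.02 (-0.11 to 0.15), Slc51a 0.03 (-0.06 to 0.12), Mgat4c 0.05 (-0.08 to 0.19) and Malrd1 0.02 (-0.23 to 0.26). Slc51b was higher in MG53-TG by 0.50 (0.40 to 0.60), with 0.31, 0.84 and 0.09 in the bottom, middle and tip ranges of the index, and 0.58, 0.49 and 0.26 with the index without the Reg genes. Nr1h4 was lower by -0.28 (-0.53 to -0.04). Along the index it had -0.18, -0.03 and -0.88 (-1.58 to -0.23) from bottom to tip. Without the Reg genes it had -0.12, -0.01 and -1.75 (-2.68 to -0.92), the last on 14 MG53-TG UMIs. Fgf15 had 0.30 (-0.14 to 0.72). Its ranges stood at 0.98, 0.43 and -0.59, with intervals that included 0. Without the Reg genes they stood at 1.92 (0.74 to 3.11), 0.42 and -0.78 (-1.43 to -0.16), the first on 13 WT and 15 MG53-TG UMIs. Cyp3a11 had 0.70 (0.06 to 1.31), on 64 and 36 UMIs, but 27 of the 36 lay in cells with Fabp6 at 0.3% to 1%, and the ratio turned to -1.12 with a Fabp6 minimum of 1%. The remaining genes had intervals that included 0, except Cyp3a13 at -0.16 (-0.31 to -0.0035). Those were Abcc3 at -0.31 (-1.04 to 0.37), Abcc2 at 0.14 (-0.28 to 0.54), Rxra at -0.18 (-0.58 to 0.21), Nr1i2 at -0.26 (-0.71 to 0.18), Vdr at 0.11 (-0.11 to 0.33) and Nr5a2 at 0.15 (-0.32 to 0.60). At the tip of the index Cyp3a13 stood at -0.55 (-0.86 to -0.25), and at -0.89 (-1.23 to -0.57) without the Reg genes. Along the index, Slc10a2 had -0.20 (-0.48 to 0.07) at the bottom, 0.29 (0.07 to 0.50) in the middle and -0.50 (-0.73 to -0.27) at the tip. Without the Reg genes the bottom turned to 0.35 (0.08 to 0.61), the middle was at 0.08 (-0.14 to 0.29) and the tip at -0.77. The single-library design gives no spread against which these sizes can be set.

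All 16 brush border enzymes had intervals above 0, with a median log2 ratio of 0.37. The Fabp6-low cells were chosen on 7 genes of the enzyme and lipid lists with a minimum set in each library, so those 7 genes are left out where the cells are set beside the members, a choice made after seeing the data. Over the 14 enzymes that did not choose the cells it was 0.36 in members and 0.32 in the Fabp6-low cells. Sis, the sucrase-isomaltase gene, was at 1197 CPM in WT and 2199 in MG53-TG, a log2 ratio of 0.88 (0.81 to 0.94). Lct and Treh passed 2-fold, with 1.32 (0.75 to 1.88) and 1.03 (0.45 to 1.59), but Lct turned to -0.21 among members with Fabp6 at 1% or more. The list median was lower when each cell weighed equally, at 0.12. Within the bottom, middle and tip ranges of the index it was 0.10, 0.35 and 0.11, beside 0.10, -0.02 and 0.02 over all genes, and without the Reg genes it was 0.42, 0.28 and -0.09. Of 16 lipid genes 11 had intervals above 0, with a median of 0.37. At the tip 4 of 13 lay above 0 and 3 below, with a median of 0.16, beside 323 above and 333 below of 4010 genes over all. Over the 11 lipid genes that did not choose the cells the median was 0.34 in all members and 0.36 in the Fabp6-low cells. Fabp2 was at 5044 and 10169.6 CPM, a log2 ratio of 1.01 (0.98 to 1.04), and stood at 0.48, 1.11 and 0.44 along the index, or 0.79, 0.93 and 0.83 without the Reg genes. Fabp1 was at 843 and 1269.6 CPM, 0.59 (0.51 to 0.67). Its ratio along the index depended on the index, with 0.71, 0.51 and -0.24 (-0.40 to -0.07) in the 3 ranges and 0.91, 0.03 and 1.80 (1.55 to 2.05) without the Reg genes. Cholesterol genes had a median of 0.35, with 7 of 12 intervals above 0. Their median in the Fabp6-low cells was 0.23, over 13 genes. Along the index their median in members was 0.29, 0.22 and 0.46, or 0.29, 0.41 and -0.01 without the Reg genes.

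The Atf4 amino acid response list had a median of 0.94 over 11 genes, 8 with intervals above 0, among them Asns, the asparagine synthetase gene, at 54.1 and 135 CPM (1.32, 1.03 to 1.61) and Atf5 (1.24, 0.77 to 1.70), which turned to -0.16 at a Fabp6 share of 1% or more. Asns had UMIs in 100 WT and 53 MG53-TG members. Within the index ranges the list median was 0.91, 0.89 and -0.01, and without the Reg genes 0.92 and 0.53, with 1 gene left at the tip. Interferon and antigen presentation genes had a median of 0.43, with 11 of 13 intervals above 0. Isg15 (1.23), Oasl2 (1.21) and Ifit1 (1.17) passed 2-fold, and 21.7% of the Isg15 UMIs in MG53-TG lay in 1 cell. Along the index the list stood at 0.37, 0.68 and 0.05, or 0.39, 0.61 and 0.24 without the Reg genes. PPAR targets and fatty acid oxidation genes had a median of 0.06 over 18 genes. Immediate early and heat shock genes had a median of -0.02 over 8 genes, with 0 intervals above 0. In the Fabp6-low cells the list medians were 1.02 for the Atf4 list, 0.34 for the interferon list and 0.30 for immediate early and heat shock genes.

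Antimicrobial and injury genes went both ways, with 6 intervals above 0 and 6 below and a median of -0.04. Saa1 was at 911 CPM in WT and 265 in MG53-TG, a log2 ratio of -1.78 (-1.94 to -1.63), and was lower in each index range, by -2.11, -1.83 and -1.28, and by -2.60, -1.52 and -2.08 without the Reg genes. It had UMIs in 205 WT and 42 MG53-TG members. In the Fabp6-low cells Saa1 was lower in MG53-TG too, at 34.0 CPM in WT and 18.4 in MG53-TG. Reg3b, a bactericidal lectin gene, was at 59206 and 40635 CPM, -0.54 (-0.56 to -0.53). Since Reg3b is one of the bottom genes of the index, its ranges are taken from the index without the Reg genes, where it stood at -0.49, -0.42 and -0.46. Reg3g was lower by -0.58 (-0.61 to -0.56). Duox2, a peroxide-producing oxidase gene, was higher by 0.83 (0.65 to 1.02), and Gsdmc4, a gasdermin gene, by 1.10 (0.93 to 1.28). Gsdmc4 had 1.75, 0.67 and 0.15 (-0.60 to 0.86) along the index. It is a bottom gene of the index with and without the Reg genes, so these ranges are partly set by it. Lcn2 had -4.52, from 4 WT cells and 1 MG53-TG cell. Vitamin B12 genes had a median of 0.04.

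**Figure D5:**
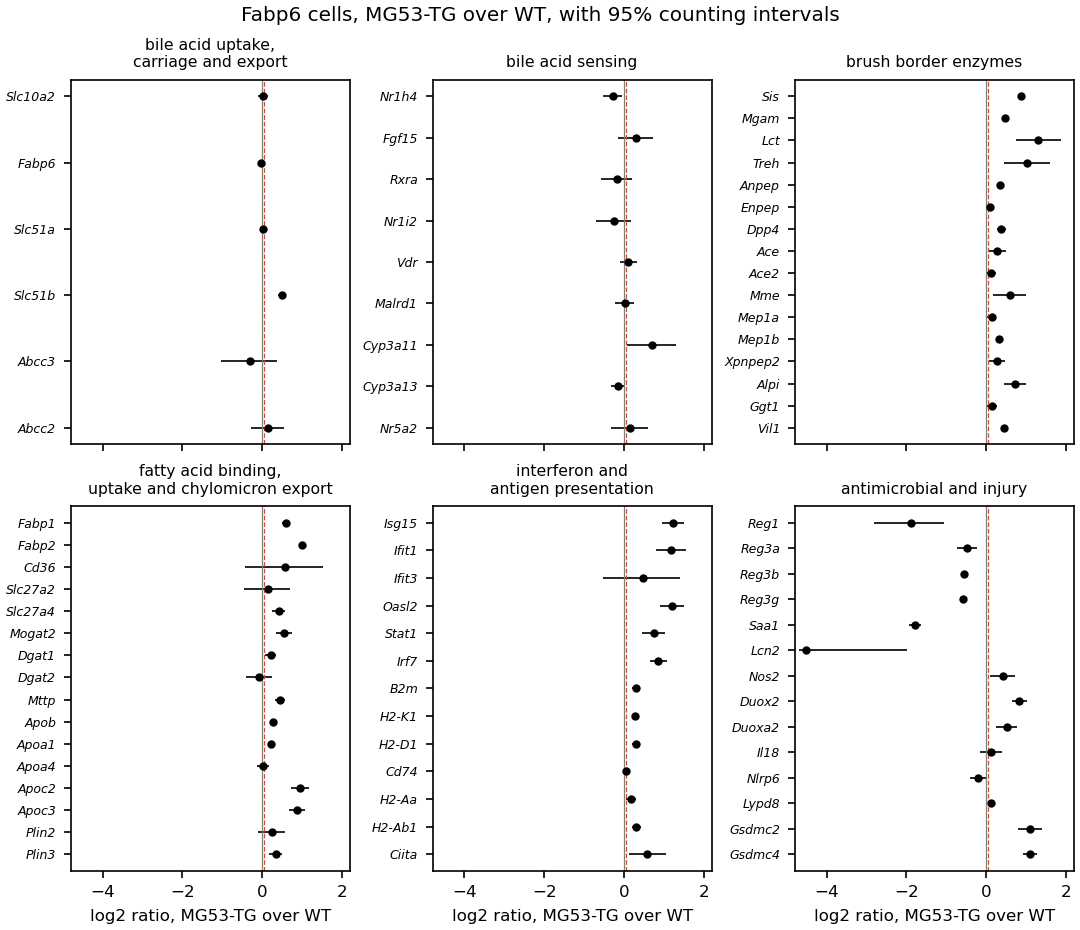
Log2 ratio of MG53-TG over WT in Fabp6 cells (x axis) for genes of 6 lists with at least 30 UMIs, with 95% conditional binomial intervals; the grey line is 0 and the dashed line the median of all genes, 0.05. Bile acid genes run from -0.31 (Abcc3) to 0.70 (Cyp3a11), the 16 brush border enzymes all lie right of 0, and Lcn2, whose lower bound is cut at the axis, rests on 4 WT cells and 1 MG53-TG cell.

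The single genes furthest apart were of 2 kinds. Some were spread over many cells. Pla2g4c, a phospholipase gene, was at 36.9 CPM in WT and 332 in MG53-TG, 3.17 (2.90 to 3.45), with UMIs in 64 cells of each library. Sprr2a3 had 1.98 (1.78 to 2.18), Enpp7 1.69, Bst2 1.55, Itpr2 1.42 and Fbp1 1.37, of which Fbp1 turned to -0.61 at a Fabp6 share of 1% or more. In the Fabp6-low cells Sprr2a3 was higher in MG53-TG too, at 9.68 CPM in WT and 24.7 in MG53-TG. The other genes of this paragraph are not set beside those cells here. Gm42031 was lower by -3.35 (-4.58 to -2.35). Defa22 and Defa21, of the near-identical defensin family whose counts are uncertain, were at -3.12 and -2.64. Defensins also took part in the rule that chose the cells, and their level in free RNA is not given here.
Others rested on 1 cell. Sst, the somatostatin gene, had 4007 UMIs in WT members, 99.3% of them in 1 cell, and Ghrl and Chgb had 97.7% and 76.2% in 1 cell. Hbb-bs, Hba-a1 and Hbb-bt had no UMI in MG53-TG and were at least 257-fold, 69.5-fold and 36.3-fold lower there (against 3 counts over the group), with at least 99.7% of the WT UMIs in 1 cell, and Hba-a2 had 98.7% in 1 cell. Cd24a and Tm4sf4 had 81.7% and 87.8% of their MG53-TG UMIs in 1 cell. Members that held at least 3 enteroendocrine or at least 3 tuft UMIs were also taken out, which left 323 WT and 90 MG53-TG cells. Pla2g4c was then at 2.91, Sprr2a3 at 1.68 and Asns at 1.22, whereas Sst was at -0.85, Chgb at -0.04, Cd24a at 0.42 and Tm4sf4 at -0.66. Chgb is one of the enteroendocrine genes used for this removal, so its value is partly set by it.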

How the data were processed

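Tables of UMI counts per gene and barcode were used as deposited, 1 for WT and 1 for MG53-TG, with 32285 genes each. Per the labels the libraries were 10x Genomics 3′ libraries (kit V3) and the processing notes name mm10 and Seurat. The deposited counts came from Cell Ranger 4 in WT, with 2005718 barcodes and 158455748 UMIs, and from Cell Ranger 6.0.1 in MG53-TG, with 12361 barcodes of at least 500 UMIs and 128227881 UMIs, so program and barcode filter go with genotype. Cells passing the filters numbered 7401 and 5153.

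UMIs were summed over member cells of a library and given as CPM with exact Poisson intervals. Ratios have exact conditional binomial intervals and shares Clopper-Pearson intervals, all at 95%, so deeper sums have narrower intervals, and all cover counting error only. Cells are not replicates and no test was run. A gene passed the fold at 2-fold with 30 UMIs and 20 CPM, in the same direction in both libraries for contrasts within a library. Pseudocounts of 1 CPM entered list medians. A count of 0 was read as allowing up to 3.

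The genes named were all bile acid genes, examples from the lists, and the ends of each contrast among genes with 100 UMIs and 50 CPM: the 10 highest and 10 lowest between genotypes, the 15 highest and 10 lowest against Fabp6-low cells, and 8 at each end within the members. Members and lists were chosen with earlier results of these data known. Some single genes of the lists are not reported here.

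Promoter sequences are from RefSeq (GRCm38.p6) and gene positions from Gencode M21. Doublets were kept, and Scrublet at 0.8% per 1000 cells was an alternative, beside other Fabp6, mitochondrial and UMI limits, other scalings, other comparison cells and no exclusions. The interval code was tested on simulated data. Python 3.11.15 was used with numpy 2.4.6, scipy 1.17.1, pandas 2.3.3, scanpy 1.11.5 and matplotlib 3.10.9.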

Additional observations from a re-analysis of the deposited data

Results flagged for a closer look

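Some genes stood apart in the MG53-TG to WT ratio of the Fabp6 cells when set beside the same ratio in Fabp6-low absorptive cells, and none of these differences was tested. Slc28a2, a nucleoside carrier gene of the villus tip, had a log2 ratio of -2.86 in the Fabp6 cells and 0.74 in the Fabp6-low cells. It rested on 7 MG53-TG UMIs and turned to 1.79 among members with Fabp6 at 1% or more. Ada, another gene of the tip list, had -1.89 against 0.69. Gsdmc2 and Gsdmc4, gasdermin genes of the bottom list, had 1.11 and 1.10 against -0.39 and -0.28, and Gsdmc2 turned to -0.086 at that Fabp6 share. Reg1, of the same list, had -1.87 against 0.03, and 67.2% of its WT UMIs in Fabp6 cells lay in 1 cell, and it turned to 2.82 with no exclusions. Olfm4, a stem cell marker, had 1.34 against -0.84, with 91.4% of its MG53-TG UMIs in 1 cell. Sst had -7.86 against 0.76, with 99.3% of its WT UMIs in 1 cell.

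Barcodes outside the comparisons also carried Fabp6. With at least 3 Fabp6 UMIs and 0.1% of UMIs, 36 WT and 16 MG53-TG barcodes stood above the mitochondrial limit. A further 53 WT and 11 MG53-TG barcodes were left out by the goblet, Paneth and Cd3 limits, 46 and 10 of them by the goblet limit.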

How the results depend on the processing

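No paired analysis was possible because each genotype had 1 library, and leaving out a replicate would leave none. The member share stayed lower in MG53-TG in all 10 alternatives, and the difference moved to -0.93 points at a Fabp6 minimum of 1% and to -6.28 points with absorptive cells as the base. Of 2679 values of single genes between genotypes under alternatives, 2437 stayed within their counting interval, and 216 of 225 list medians within the median spread of their genes' intervals. Slc10a2 ran from -0.43 to 0.38, Slc51b from 0.35 to 0.74, Nr1h4 from -0.53 to -0.06, and the list medians from 0.12 to 0.45 for brush border enzymes, from 0.30 to 0.54 for lipid genes and from 0.22 to 0.99 for Atf4 targets. Alternatives chosen after seeing the data were those without enteroendocrine or tuft UMIs (members with at least 3 left out), at 3000 UMIs, with absorptive cells as the base, with both groups at the median absorptive share, and with the index without Reg genes.

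Between genotypes, genes past the fold numbered 141 higher and 216 lower with no CPM minimum, 16 and 12 at 100 CPM, and 379 and 171 at a fold of 1.5, which change the genes tested or the fold itself. The lower count was 190 at a Fabp6 minimum of 1%, where fewer cells are left, and 99 with the mean of single-cell CPM. The list medians at that Fabp6 minimum were 0.27 for bile acid transport, -0.22 for vitamin B12, 0.17 for brush border enzymes, 0.22 for Atf4 targets and 0.57 for the villus tip. With the mean of single-cell CPM they were -0.34 for vitamin B12, 0.12 for brush border enzymes and -0.19 for the villus tip, and with all listed genes with a UMI vitamin B12 was at -0.24. Among the named and listed genes past the fold, direction turned for Tm4sf4 (-0.36 at a Fabp6 minimum of 0.2%, -1.02 at 1%, -0.66 without enteroendocrine or tuft UMIs) and Reg1 (2.82 with no exclusions). At 1% it turned for Fbp1 (-0.61), Sst (0.47), Lct (-0.21), Slc28a2 (1.79), Abca1 (-0.12), Gsdmc2 (-0.086) and Atf5 (-0.16). Turns of genes short of the fold, such as Cyp3a11 and Slc10a2, are not listed here.

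Against Fabp6-low cells, 442 genes were lower at a Fabp6 minimum of 1%, and 191 were higher and 148 lower at a mitochondrial limit of 50%. With the comparison cells at the 25th percentile of absorptive share the counts were 163 and 130, and at the 50th 138 and 103. At the 25th percentile Nts turned to 0.35 in WT and 0.84 in MG53-TG, and Gcg to 0.85 in MG53-TG. At the 50th, the WT ratios were 1.54 for Hist1h1b, 0.27 for Gip, 0.25 for Nts, 0.22 for Gcg and 0.52 for Top2a, and those of MG53-TG 0.026 for Gip, 0.62 for Nts, 1.65 for Gcg and 0.62 for Top2a. With both groups at the median the WT ratios were 0.44 for Hist1h1b, 0.92 for Gip, 1.15 for Nts, 0.20 for Cck, 1.47 for Gcg and 0.83 for Top2a, and those of MG53-TG 0.40 for Gip, 0.99 for Nts and 2.29 for Gcg. Along the villus index 695 genes were lower without the Reg genes and 83 with members of 3000 UMIs. Apart from the changes whose construction is named, the cause was not tested. The small number of cells limits the MG53-TG values most, since they rest on 103 members.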

Other observations

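Nutrient carriers and transcription factors of the Fabp6 cells were not described between genotypes above. Of 15 nutrient carriers 9 had intervals above 0 and 1 below, with a median log2 ratio of 0.26 for MG53-TG over WT. The median in the Fabp6-low cells was 0.24, over 16 genes. Along the index the median in members was 0.14, 0.24 and 0.02 from bottom to tip, and 0.32, 0.24 and -0.07 without the Reg genes. Slc5a1, the sodium-glucose carrier of the brush border, had 0.75 (0.66 to 0.84) and Slc2a2, the basolateral sugar carrier, 1.22 (0.80 to 1.64). Slc6a19, a carrier of neutral amino acids, had 0.44 (0.29 to 0.59) over all members. At the tip of the index it was at 889 CPM in WT and 896 in MG53-TG, and at the bottom at 110 and 89.0 CPM. Slc28a2, which carries nucleosides, was lower by -2.86 (-4.20 to -1.78), on 7 MG53-TG UMIs, and turned to 1.79 among members with Fabp6 at 1% or more.

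Of 13 intestinal transcription factors 4 had intervals above 0 and 1 below, with a median of 0.07 and none past 2-fold. Maf had 0.53 (0.42 to 0.64) and Klf4 0.35 (0.16 to 0.54), whereas Hnf4a had 0.07 (-0.12 to 0.25) and Cdx2 0.11 (-0.18 to 0.40). Along the index the list median was 0.12, -0.10 and 0.15, and 0.20, -0.07 and -0.05 without the Reg genes. At the tip none of the 8 genes measured there had an interval above 0 with either index. Over all genes 323 of 4010 did at the tip, and 420 of 3439 without the Reg genes. Along the villus index, Maf and Gata6 were at least 2-fold higher at the tip in both libraries, and Maf ran from 334 to 929.6 CPM in WT.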
